A study of Mus musculus with 9 samples.

Results

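The myosin light chain genes described here are Myl1, Myl2, Myl3, Myl4, Myl6, Myl6b, Myl7, Myl9 and Mylpf. They were chosen by name to cover the atrial, ventricular, fast skeletal, smooth muscle and non-muscle isoforms, by a list of names rather than by a threshold on their values, with earlier results of these data known. They are 9 of 34779 named genes in the deposited table. Of these 9 genes, 7 reached a mean of 1 TPM (a length-corrected share of the transcripts of a library) over all libraries and were tested among 13228 genes. Myl2 and Myl3 did not reach it.

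RNA was sequenced from wild-type (WT) mouse neonatal cardiac fibroblasts in 3 groups of 3 libraries. The first group received DsRed virus, which encodes a red fluorescent protein and served as the negative control. The second received MGT virus, which in this field stands for the heart transcription factors Mef2c, Gata4 and Tbx5. The third received MGT virus and TMP269, an inhibitor of class IIa histone deacetylases such as Hdac4, and is called MGT+TMP269 below. All cells were infected 24 h after seeding and were profiled at day 14. The study asked what TMP269 does to the conversion of fibroblasts towards cardiomyocytes. The dose of TMP269 and the promoter of the viral vectors are not stated in the labels. The labels call the libraries biological replicates, but do not say whether they came from separate animals or cultures, so the tests measure the spread between these libraries.

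Myosin of muscle and non-muscle cells is a pair of heavy chains, each of which binds 1 essential and 1 regulatory light chain at its lever arm. The essential chain (Myl1, Myl3, Myl4, Myl6, Myl6b) stiffens the lever. The regulatory chain (Myl2, Myl7, Myl9, Mylpf) can be phosphorylated by myosin light chain kinases, which switches smooth and non-muscle myosin on and tunes the force of striated muscle. In the heart, Myl4 and Myl7 mark the atria and the early heart tube, whereas Myl2 and Myl3 mark the ventricles. The tissue names given to genes below are labels. The level of a gene does not by itself tell which type of muscle its transcript belongs to.

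The promoters of 5 of these genes are printed because their transcripts separated the groups or stayed near 0, and because the delivered factors bind DNA at named motifs. RefSeq windows of the mouse build GRCm38.p6 matched all 9 genes, with 11 windows in all, since Myl2 and Myl6 have 2 annotated starts each in this table. Each window runs from 250 bases before to 50 bases after an annotated start, 5′ to 3′ along the gene's strand. The submitters' processing notes name build mm9, so these coordinates are not those of their files. Capitals mark every match, on either strand, to a MEF2 site, a CArG box (the serum response factor site), the GATA site AGATAA, the E-box CANNTG, the T-box motif AGGTGT and the MCAT element CATTCC (the TEAD factor site).
Myl4 (atrial essential), chr11:104550413-104550712, plus strand: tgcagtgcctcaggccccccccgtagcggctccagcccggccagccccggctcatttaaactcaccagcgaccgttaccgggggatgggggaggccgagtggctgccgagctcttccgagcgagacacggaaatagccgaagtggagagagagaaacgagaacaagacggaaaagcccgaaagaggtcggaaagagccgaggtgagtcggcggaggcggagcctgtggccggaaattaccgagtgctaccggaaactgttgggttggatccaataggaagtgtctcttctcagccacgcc
Myl7 (atrial regulatory), chr11:5898733-5899032, minus strand: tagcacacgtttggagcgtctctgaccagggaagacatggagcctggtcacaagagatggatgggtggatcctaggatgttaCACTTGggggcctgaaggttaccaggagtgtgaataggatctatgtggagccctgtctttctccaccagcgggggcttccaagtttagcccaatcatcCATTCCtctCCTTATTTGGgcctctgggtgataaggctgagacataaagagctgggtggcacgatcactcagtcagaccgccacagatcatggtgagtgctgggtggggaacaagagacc
Myl1 (fast skeletal essential), chr1:66945007-66945306, minus strand: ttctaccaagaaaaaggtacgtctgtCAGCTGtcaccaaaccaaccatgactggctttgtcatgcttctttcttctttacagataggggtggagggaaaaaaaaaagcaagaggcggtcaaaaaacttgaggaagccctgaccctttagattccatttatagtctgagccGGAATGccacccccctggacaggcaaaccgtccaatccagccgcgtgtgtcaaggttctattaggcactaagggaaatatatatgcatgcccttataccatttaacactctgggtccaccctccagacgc
Myl3 (ventricular essential), chr9:110763428-110763727, plus strand: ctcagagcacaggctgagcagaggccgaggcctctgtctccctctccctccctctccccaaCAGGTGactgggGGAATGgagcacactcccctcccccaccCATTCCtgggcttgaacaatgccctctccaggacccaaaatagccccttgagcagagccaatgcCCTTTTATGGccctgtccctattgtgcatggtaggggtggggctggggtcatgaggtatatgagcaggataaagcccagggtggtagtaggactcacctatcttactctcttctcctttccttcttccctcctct
Myl9 (smooth muscle regulatory), chr2:156775214-156775513, plus strand: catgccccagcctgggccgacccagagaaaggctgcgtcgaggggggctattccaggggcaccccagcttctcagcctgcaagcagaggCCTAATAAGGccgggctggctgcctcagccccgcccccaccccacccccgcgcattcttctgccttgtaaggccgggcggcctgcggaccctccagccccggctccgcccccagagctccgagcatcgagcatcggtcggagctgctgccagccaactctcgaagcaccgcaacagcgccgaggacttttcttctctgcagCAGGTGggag

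The Myl4 window held none of the 6 motifs. The Myl7 window held an E-box at -168 to -163, an MCAT element at -70 to -65 and a CArG box at -61 to -52 from the start. The Myl1 window held an E-box at -224 to -219 and an MCAT element at -80 to -75. The Myl3 window held an E-box at -189 to -184, MCAT elements at -177 to -172 and -149 to -144, and a CArG box at -85 to -76. The Myl9 window held a CArG box at -161 to -152 and an E-box at 41 to 46. No matches of different motifs shared a base in these windows.

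A CArG box was found in 4 of the 11 light chain windows (Myl3, Myl6, Myl7 and Myl9), against 1.63% of all 32851 promoter windows of the same length. An MCAT element was found in 3 of 11, against 14.7% of all windows. A GATA site, searched only as AGATAA, was found in 1 of 11, a window of Myl2, against 11.2% of all windows. Other spellings of the GATA site were not searched, so a window without AGATAA may still hold one. The E-box, a short motif, was in 9 of 11, against 72.3% of all windows. The MEF2 site and the T-box motif were in 0 of 11 windows, against 3.19% and 13.7% of all windows. A match is a string of letters and not a measured binding site, and other starts of these genes, enhancers and more distant sequence were not searched.

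**Figure D1:**
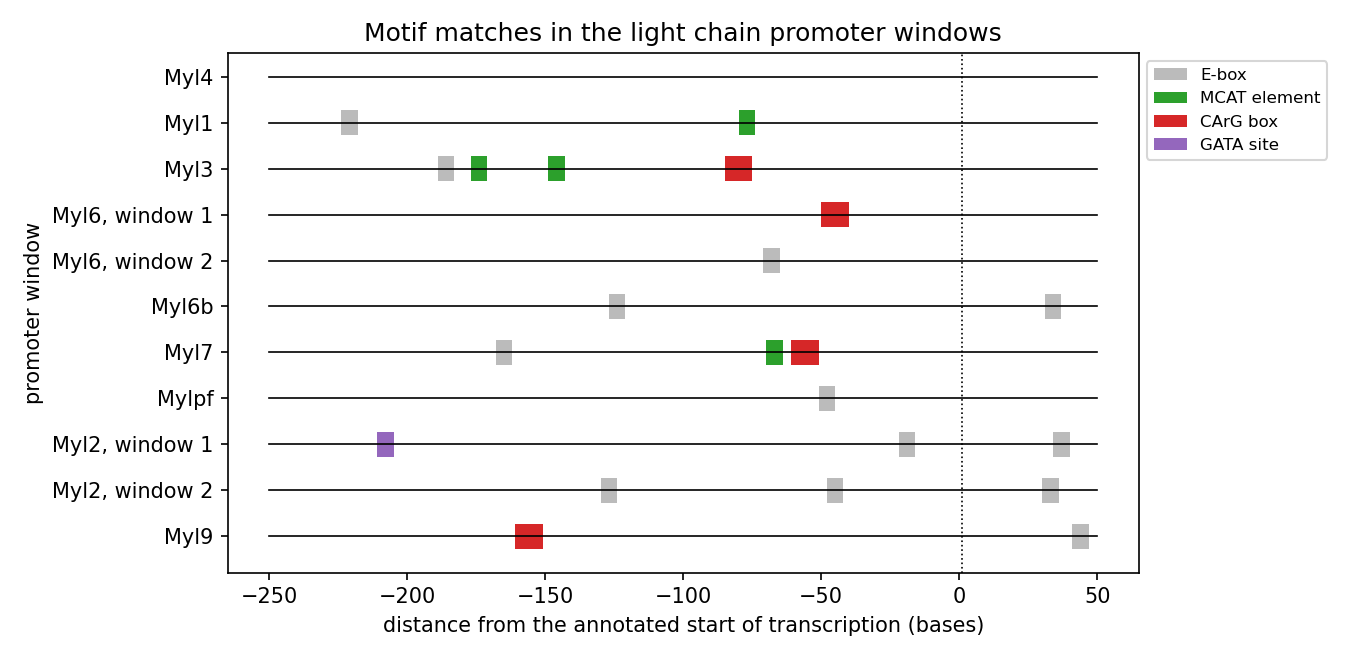
Motif matches in the 11 promoter windows of the light chain genes. The horizontal axis is the distance from the annotated start of transcription in bases, each line is 1 window, and the coloured blocks are matches to the 4 motifs that were found. Red CArG boxes lie in the windows of Myl3, Myl6, Myl7 and Myl9, and the Myl4 line is empty.

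Library totals lay between 988020 and 988999 TPM. Read depth cannot be read from TPM, so no counting interval is given. DsRed replicate 2 stood apart: its upper quartile was 5.38 TPM against 8.69 to 9.57 in the other libraries, and its Pearson correlation with the other DsRed libraries was 0.942 to 0.943, against 0.973 between those. Calls of named genes and counts over lists that change without it are given both ways. The 3 delivered genes were higher in every MGT and MGT+TMP269 library than in every DsRed library. Mef2c was at 7.64, 34.2 and 7.54 TPM in the DsRed libraries, highest in replicate 2, and at means of 648.2 TPM in MGT and 680.8 TPM in MGT+TMP269. Fibroblast markers were present in DsRed cells, where 10 markers summed to between 6071 and 11365 TPM.

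In the control cells, the light chains were mostly the non-muscle and smooth muscle forms. In DsRed cells the mean levels followed the order Myl6, Myl9, Myl4, Myl7, Myl6b, Mylpf, Myl1, Myl2 and Myl3, from 2848 TPM down to 0.0895 TPM, and of neighbours in this order only Mylpf and Myl1 overlapped between libraries. In MGT cells Myl4 led, followed by Myl6, Myl9, Myl7, Myl1, Mylpf, Myl6b, Myl3 and Myl2. Overlapping neighbours in MGT were Mylpf with Myl6b, and Myl3 with Myl2. In MGT+TMP269 cells the order was Myl4, Myl6, Myl7, Myl9, Myl1, Mylpf, Myl6b, Myl2 and Myl3, so Myl7 and Myl9 exchanged places. There Mylpf overlapped Myl6b, and Myl2 overlapped Myl3.

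With MGT against DsRed, 5 of the 7 tested light chain genes rose and 0 fell, where 12.3% of all genes tested were called, 8.14% higher and 4.18% lower. Called means a limma adjusted p under 0.05, adjusted by the Benjamini-Hochberg method over all 13228 genes. The 5 were Myl4, Myl7, Myl1, Mylpf and Myl9. With MGT+TMP269 against MGT, Myl1 and Myl7 rose and Myl9 fell, 3 of 7, where 9.29% of all genes were called, 3.32% higher and 5.97% lower. With MGT+TMP269 against DsRed, Myl1, Myl4 and Myl7 rose and Myl6b fell, 4 of 7, where 22.8% of all genes were called, 14.7% higher and 8.06% lower. Without DsRed replicate 2, Myl6 joined the calls in all 3 comparisons and Myl6b in the second, which made 6, 5 and 5 of 7. Of all genes tested, 12.5%, 19.3% and 21.3% were then called higher and 13.6%, 11.3% and 15.2% lower. In each comparison 5 of the 7 tested genes did not overlap between groups, where 28.7%, 49.3% and 41.9% of all genes tested did not overlap. The comparisons share libraries and are not independent of each other. The median log2 fold change of the 7 tested genes was 1.66 with MGT, -0.22 with MGT+TMP269 against MGT and 0.81 with MGT+TMP269 against DsRed, beside 0.11, 0.107 and 0.218 over all genes tested. Median-ratio scaling moves these last medians to -0.01, 0.00304 and -0.008, so log2 changes given below can be read against that shift. Because a bulk library pools all cells of a dish, a change in the number of cells that carry a transcript and a change in its level per cell cannot be told apart in any result below.

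**Figure D2:**
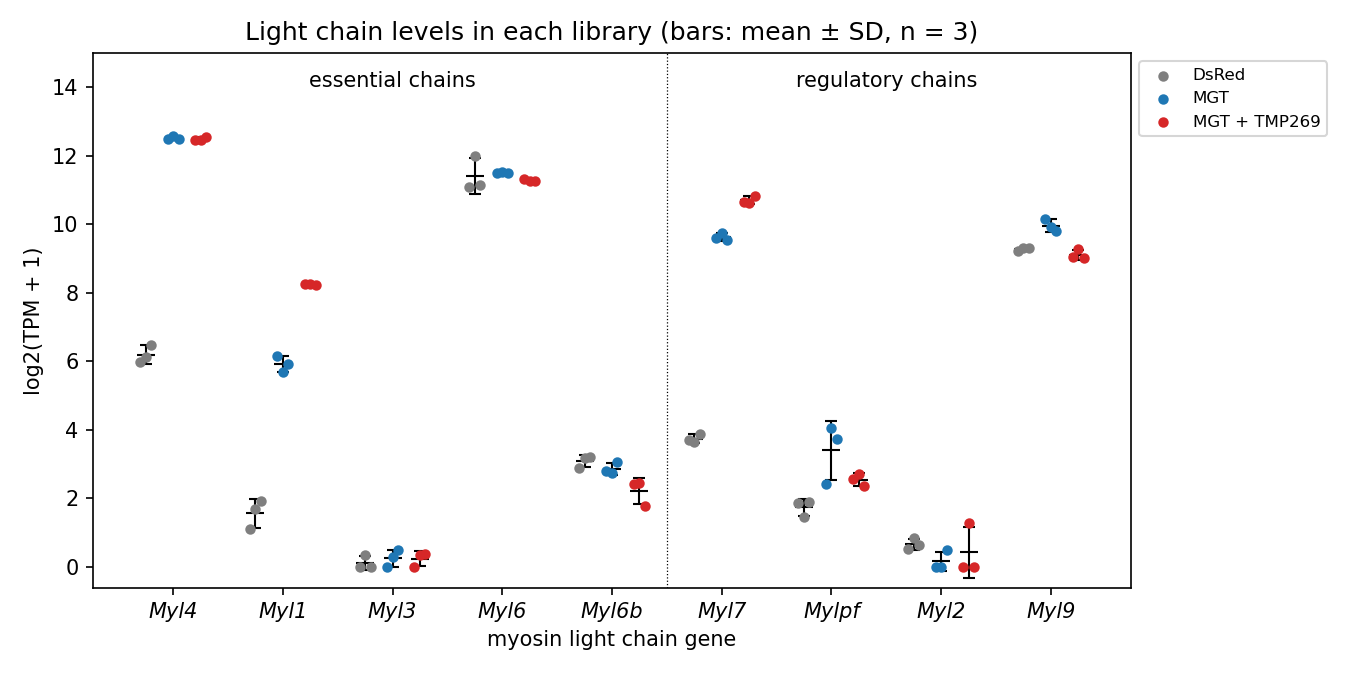
Levels of the 9 light chain genes in each library, on a log2(TPM + 1) axis, with essential chains on the left and regulatory chains on the right. Points are libraries and bars are the mean ± SD of 3 libraries. Myl4, Myl7 and Myl1 are far above DsRed in MGT and MGT+TMP269, Myl7 and Myl1 are highest with MGT+TMP269, and Myl2 and Myl3 lie near 0 throughout.

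The atrial essential chain, Myl4, went from a minor transcript to the most abundant light chain with MGT, and was not called between MGT+TMP269 and MGT. Its level was 61.8, 69.1 and 89.1 TPM in the DsRed libraries, 5719.8, 6115 and 5769 TPM in MGT, and 5645, 5684 and 6038 TPM in MGT+TMP269. All MGT and MGT+TMP269 libraries lay far above the DsRed libraries, and the MGT and MGT+TMP269 libraries overlapped. The mean rose from 73.3 ± 14.1 TPM (SD, n = 3) to 5868 ± 216 TPM (SD, n = 3) with MGT, an 80-fold difference. The log2 fold change was 6.32 ± 0.13 (SE), with an adjusted p of 8.59e-09 in limma. MGT+TMP269 stood at 5789 ± 216 TPM (SD, n = 3), and its log2 difference from MGT was -0.02, with a 95% interval of -0.309 to 0.27 and a limma adjusted p of 0.957.

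The atrial regulatory chain, Myl7, also rose with MGT, and rose again with TMP269. It was listed at 12.01, 11.5 and 13.79 TPM in DsRed, 770.8, 865.6 and 746.0 TPM in MGT, and 1593, 1584 and 1830.3 TPM in MGT+TMP269. The 3 groups did not overlap. The mean was 12.4 ± 1.2 TPM in DsRed and 794.1 ± 63.2 TPM in MGT (SD, n = 3 each), a 63.9-fold difference with a log2 fold change of 5.89 ± 0.11 (SE) and a limma adjusted p of 8.59e-09. TMP269 raised the mean 2.1-fold further, to 1669 ± 139.8 TPM (SD, n = 3), with a log2 fold change of 1.07 ± 0.11 (SE) and a limma adjusted p of 0.000441. Against DsRed, the level with MGT+TMP269 was 134-fold higher.

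The fast skeletal essential chain, Myl1, moved the same way and more steeply with TMP269. DsRed libraries held 1.14, 2.22 and 2.78 TPM, MGT libraries 71.1, 50.6 and 59.7 TPM, and MGT+TMP269 libraries 307.0, 303.1 and 298.1 TPM. Each group lay wholly above the one before. The log2 fold change with MGT was 4.36 ± 0.21 (SE), 29.6-fold, with a limma adjusted p of 9.66e-07. TMP269 added a log2 fold change of 2.32 ± 0.21 (SE), 5.01-fold, with a limma adjusted p of 0.000201. Against DsRed, the MGT+TMP269 mean of 302.8 ± 4.46 TPM (SD, n = 3) was 148-fold higher. Of the distinct stretches of 31 bases in the Myl1 transcripts of the GENCODE M21 annotation, 19.5% also occur in the pseudogene Mylf-ps, which was listed at 0 in 8 libraries and at 1.43 TPM in MGT+TMP269 replicate 1.

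Its fast skeletal partner, the regulatory chain Mylpf, was low in all 3 groups, and its calls changed when single libraries were left out. It was listed at 2.66, 1.75 and 2.69 TPM in DsRed, 4.34, 15.5 and 12.4 TPM in MGT, and 4.91, 5.61 and 4.14 TPM in MGT+TMP269. MGT replicate 1 lay below the other MGT libraries and inside the range of MGT+TMP269. The log2 fold change with MGT was 1.66 ± 0.38 (SE), 4.54-fold, with a limma adjusted p of 0.0186. That call was lost without MGT replicate 2 (adjusted p 0.0733) and without MGT replicate 3 (adjusted p 0.0843), and also with no filter on low values, with only the 2 groups compared in the fit, and with array weights. With MGT+TMP269 against MGT the log2 difference was -0.85 ± 0.38 (SE), with a limma adjusted p of 0.23. Without MGT replicate 1 it was -1.34, with a limma adjusted p of 0.0177. With MGT+TMP269 against DsRed the log2 difference was 0.81 ± 0.38 (SE) and the limma adjusted p 0.151, which became 0.0342 without MGT replicate 1.

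Myl1 and Mylpf are textbook fast skeletal genes, and 6 skeletal myogenic factors (Myod1, Myog, Myf5, Myf6, Pax7 and Pax3) were low: their summed level was at most 1.31 TPM in any library, and 0 of the 6 reached the mean of 1 TPM needed for a test. Pax3 led this sum, with means of 1.065, 0.503 and 0.560 TPM in DsRed, MGT and MGT+TMP269. Myog was listed at 0.144, 0.266 and 0.413 TPM in the MGT libraries and at 0 in every other library.

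The ventricular chains Myl2 and Myl3 were near 0 in all 3 groups. Myl2, the ventricular regulatory chain, was listed at 0.427, 0.786 and 0.553 TPM in DsRed, at 0, 0 and 0.400 TPM in MGT, and at 0, 1.45 and 0 TPM in MGT+TMP269. Myl3, the ventricular and slow skeletal essential chain, was listed at 0, 0.268 and 0 TPM in DsRed, at 0, 0.214 and 0.398 TPM in MGT, and at 0, 0.287 and 0.294 TPM in MGT+TMP269. Its groups overlapped, while for Myl2 all DsRed libraries were above all MGT libraries. With no filter on low values, 23842 genes could be tested, and the limma adjusted p of these 2 genes lay between 0.564 and 1 over the 3 comparisons. Of the other ventricular markers examined (Myh7, Irx4 and Hey2), Irx4 was listed at 0 in all 9 libraries. Myh7 was low but higher than DsRed in both other groups. It lay between 0 and 0.0407 TPM in DsRed, 0.112 and 0.820 TPM in MGT, and 0.150 and 1.87 TPM in MGT+TMP269. Hey2 went the other way, with 1.29 to 1.62 TPM in DsRed, 0.646 to 1.15 TPM in MGT and 0.597 to 1.15 TPM in MGT+TMP269. All 5 ventricular markers summed to between 2.03 and 2.39 TPM in DsRed, 1.17 and 1.97 TPM in MGT, and 1.30 and 2.78 TPM in MGT+TMP269.

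The smooth muscle regulatory chain, Myl9, rose with MGT and fell with TMP269 to levels that overlapped DsRed. Its level was 601.6, 627.5 and 634.3 TPM in DsRed, 1147, 971.8 and 892.9 TPM in MGT, and 526.3, 621.6 and 520.2 TPM in MGT+TMP269. All MGT libraries were above all others, and the MGT+TMP269 and DsRed libraries overlapped. The rise with MGT was 1.62-fold, a log2 fold change of 0.68 ± 0.12 (SE) with a limma adjusted p of 0.00386. That call was lost under median-ratio scaling, where the log2 fold change was 0.55 and the adjusted p 0.0697. The fall with TMP269 was 1.81-fold, a log2 fold change of -0.85 ± 0.12 (SE) with a limma adjusted p of 0.00195. MGT+TMP269 differed from DsRed by -0.16 on the log2 scale, with a 95% interval of -0.428 to 0.1 and a limma adjusted p of 0.337.

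Smooth muscle, fibroblast and macrophage markers fell in the same TMP269 comparison as Myl9. The 9 smooth muscle markers in the table summed to between 8096 and 8658 TPM in DsRed, 10455 and 10579 TPM in MGT, and 6609 and 6772 TPM in MGT+TMP269. Of these, 2 rose with MGT, Des from 214 to 1166 TPM and Acta2 from 2882 to 3984 TPM. Another 3, Cnn1, Smtn and Actg2, fell 1.98-, 1.57- and 3.1-fold with MGT, although the sum rose. With TMP269 0 rose and 6 fell, among them Cnn1, Actg2 and Tagln, proteins of the smooth muscle thin filament. The 10 fibroblast markers summed to between 7724 and 8275 TPM in MGT and 2390.1 and 2534 TPM in MGT+TMP269, and 1 rose and 5 fell with MGT against DsRed, while 0 rose and 6 fell with TMP269. The 12 macrophage markers summed to between 724 and 2012 TPM in DsRed, 1838 and 3457 TPM in MGT, and 106 and 160 TPM in MGT+TMP269, and 1 rose and 0 fell with MGT, while all 12 fell with TMP269, including C1qa, C1qb and C1qc. Of all genes tested, 8.14% rose and 4.18% fell with MGT, and 3.32% rose and 5.97% fell with TMP269. Of the 12 macrophage markers, 2 were below 1 TPM in MGT+TMP269, Ptprc and Mrc1, with means of 0.679 and 0.211 TPM. They passed the filter through the groups in which they were high, so their part in the counts of 12 is no independent result. Without DsRed replicate 2, the counts with TMP269 were 7 smooth muscle, 9 fibroblast and 12 macrophage markers lower, where 11.3% of all genes tested were. With MGT they were then 2 higher and 4 lower, 1 higher and 7 lower, and 0 higher and 0 lower. In that fit 12.5% of all genes tested were higher and 13.6% lower with MGT. The part of these marker changes in the light chain values was not tested.

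The non-muscle and smooth muscle essential chain, Myl6, was abundant in every group and gave no call in the fit of all 9 libraries. It was listed at 2164, 4117 and 2263 TPM in DsRed, 2871, 2969 and 2870.3 TPM in MGT, and 2569, 2459.5 and 2435 TPM in MGT+TMP269. DsRed replicate 2 lay far above every other library. The log2 difference with MGT was 0.09 ± 0.21 (SE), with a limma adjusted p of 0.832. Without DsRed replicate 2 it was 0.39, with a limma adjusted p of 0.000256, whereas median-ratio scaling gave -0.04. All MGT+TMP269 libraries were below all MGT libraries, which was so of 49.3% of all genes tested in 1 direction or the other. That log2 difference was -0.22 ± 0.21 (SE), with a limma adjusted p of 0.61, which fell to 0.0032 without DsRed replicate 2. Quantile normalization turned its sign, to 0.05. Against DsRed, MGT+TMP269 gave -0.13 with an adjusted p of 0.675, and 0.17 with an adjusted p of 0.0147 without DsRed replicate 2. Of the 31-base stretches of Myl6 transcripts, 22.3% occur in other genes, most of them in Gm5526, which had at most 8.18 TPM in any library.

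Myl6b, an essential chain of slow muscle and non-muscle cells, was a minor transcript. Its level was 6.47, 8.09 and 8.29 TPM in DsRed, 6.01, 5.65 and 7.28 TPM in MGT, and 4.41, 4.48 and 2.41 TPM in MGT+TMP269. The MGT+TMP269 libraries lay below all others. Against DsRed the level with MGT+TMP269 fell 2.02-fold, a log2 fold change of -0.88 ± 0.23 (SE) with a limma adjusted p of 0.022. That call was lost without MGT+TMP269 replicate 3 (adjusted p 0.0768) and with only the 2 groups compared in the fit (adjusted p 0.0703). The log2 difference was -0.24 with MGT against DsRed and -0.64 with MGT+TMP269 against MGT, with limma adjusted p values of 0.582 and 0.127. The last became 0.0499 without DsRed replicate 2.

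**Figure D3:**
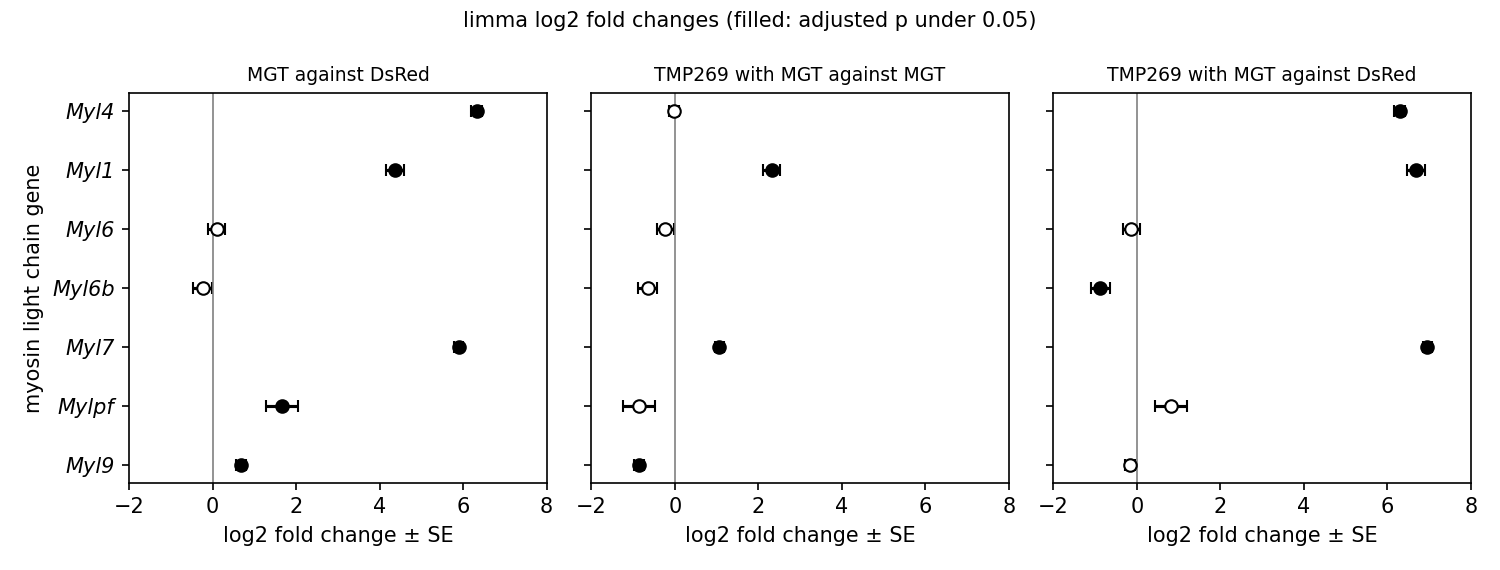
Log2 fold changes of the 7 tested light chain genes in the 3 comparisons. Points are limma estimates on log2(TPM + 1) and bars are ± SE, with filled points for an adjusted p under 0.05. The axis is the same in each panel: Myl4 is at 6.32, -0.02 and 6.30, and Myl1 at 4.36, 2.32 and 6.68.

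Ratios within a library do not depend on how libraries are scaled. The total of these 9 genes with Myl12a and Myl12b, the non-muscle regulatory chains, was 6439 ± 1396 TPM in DsRed, 15043 ± 364 TPM in MGT and 15127 ± 222 TPM in MGT+TMP269 (SD, n = 3 each). That was 0.651%, 1.52% and 1.53% of all TPM. Isoforms of striated muscle (Myl1, Myl2, Myl3, Myl4, Myl7 and Mylpf) held 1.45 ± 0.40% of the light chain TPM in DsRed, 44.8 ± 0.84% in MGT and 51.3 ± 1.55% in MGT+TMP269 (SD, n = 3 each). The DsRed libraries lay between 1.07% and 1.87%, the MGT libraries between 43.9% and 45.6%, and the MGT+TMP269 libraries between 50.4% and 53.1%, with no overlap. The total itself overlapped between MGT and MGT+TMP269.

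Myl4 took 1.17 ± 0.34%, 39.0 ± 0.66% and 38.3 ± 0.86% of the light chain TPM in DsRed, MGT and MGT+TMP269 (SD, n = 3 each). Myl7 took 0.200 ± 0.050%, 5.27 ± 0.29% and 11.03 ± 0.76%. Myl1 took 0.0320%, 0.403% and 2.00%. Myl9 took 9.91%, 6.68% and 3.68%, and Myl6 took 43.3%, 19.3% and 16.5%.

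**Figure D4:**
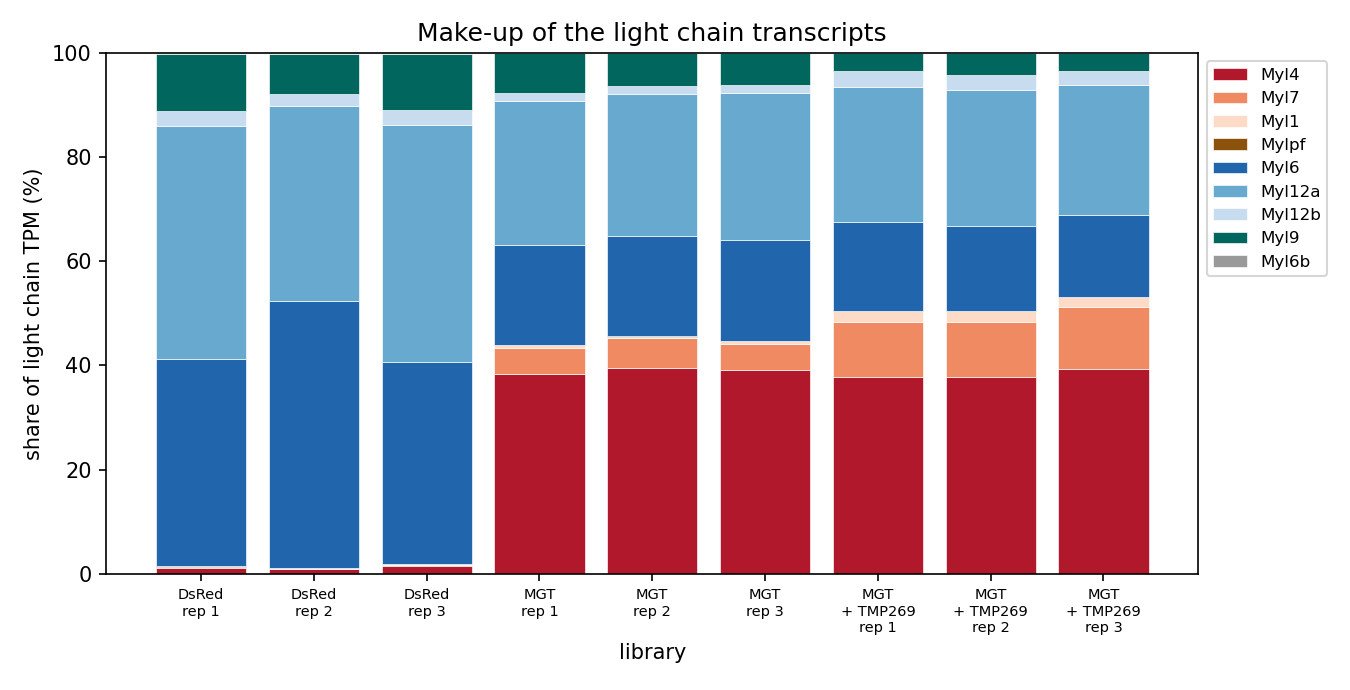
Make-up of the light chain transcripts in each library, as a percentage of the light chain TPM of that library. Striated isoforms are stacked from the bottom in red and orange shades, and the others above them in blue, green and grey. The red Myl4 block is near 1.17% in DsRed and near 39.0% in MGT, and the Myl7 and Myl1 blocks are widest in the MGT+TMP269 libraries.

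The balance inside the atrial and the fast skeletal pair differed in opposite directions between MGT+TMP269 and MGT. Myl7 over Myl4, the atrial regulatory chain per atrial essential chain, was 0.172 ± 0.020 in DsRed, 0.135 ± 0.006 in MGT and 0.288 ± 0.013 in MGT+TMP269 (SD, n = 3 each). On the log2 scale it was 1.09 ± 0.05 (SE) higher in MGT+TMP269 than in MGT. Mylpf over Myl1, the same balance for the fast skeletal pair, was 1.37 ± 0.85, 0.192 ± 0.124 and 0.0161 ± 0.0023, with a log2 difference of -3.29 ± 0.71 (SE) between MGT+TMP269 and MGT. This last difference was -3.98 without MGT replicate 1 and -2.81 without MGT replicate 2. The DsRed ratios were 2.34, 0.788 and 0.969, so the DsRed mean rests on replicate 1. The log2 difference between MGT and DsRed, -2.95, was -2.27 without MGT replicate 1. Neither pair's groups overlapped between MGT and MGT+TMP269.

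Myl4 over Myl1, the atrial against the fast skeletal essential chain, was 39.2 ± 13.1 in DsRed, 99.3 ± 20.3 in MGT and 19.1 ± 0.99 in MGT+TMP269 (SD, n = 3 each). Its log2 difference between MGT+TMP269 and MGT was -2.36 ± 0.18 (SE). Striated essential chains exceeded striated regulatory chains 4.89 ± 0.64-fold in DsRed, 7.38 ± 0.35-fold in MGT and 3.65 ± 0.17-fold in MGT+TMP269. Over all light chains, the essential to regulatory ratio was 0.823 ± 0.234, 1.42 ± 0.04 and 1.31 ± 0.02. The last ratio of MGT+TMP269 against DsRed turned its sign when Myl12a and Myl12b were left out.

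Of these ratios, 5 were tested in 3 comparisons each, by two-sided exact permutation tests. In all 15 the groups did not overlap and p was 0.1, before and after Benjamini-Hochberg adjustment, which is the smallest value that 3 against 3 libraries can give. These tests could therefore not pass 0.05.

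**Figure D5:**
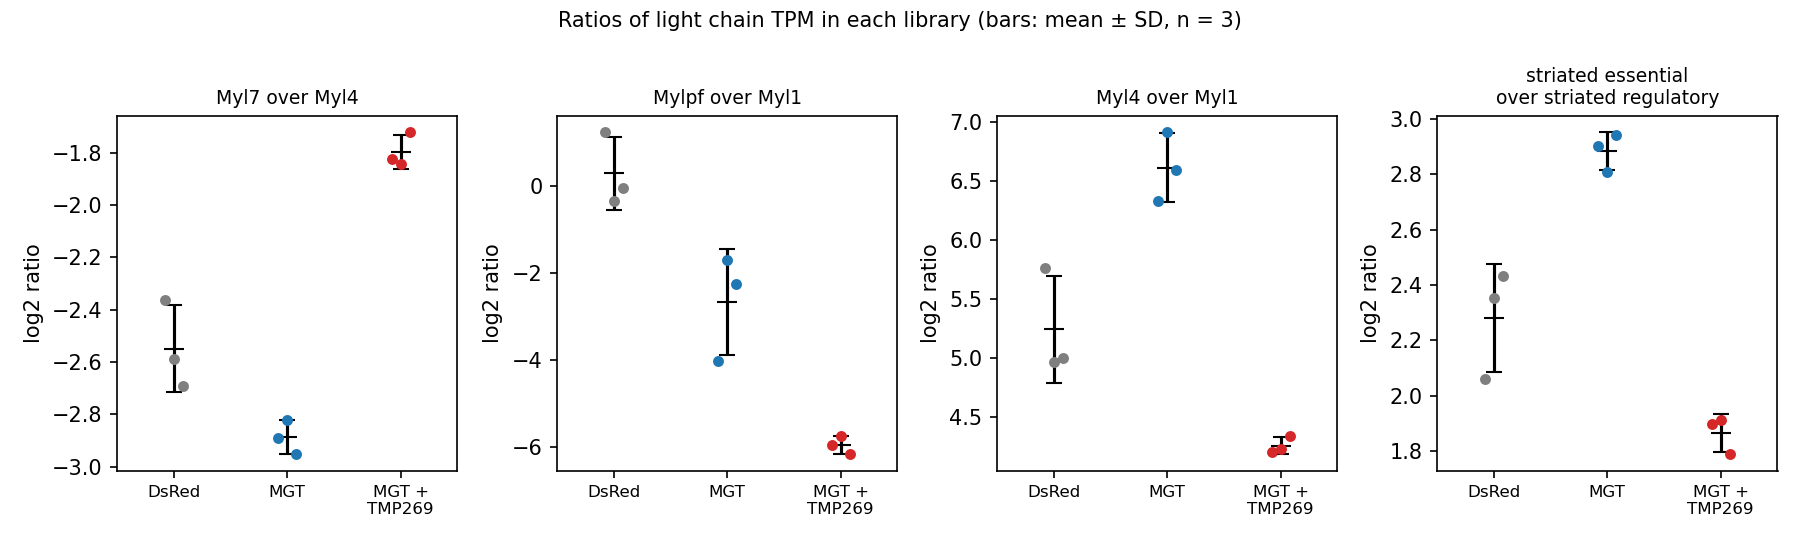
Ratios of light chain TPM in each library, on a log2 axis that differs between panels. Points are libraries and bars are the mean ± SD of 3 libraries. Myl7 over Myl4 is highest with MGT+TMP269, Mylpf over Myl1 is highest in DsRed and lowest with MGT+TMP269, and Myl4 over Myl1 and striated essential over striated regulatory are highest with MGT.

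Myl12a and Myl12b, the regulatory chains of non-muscle myosin, rose with MGT but differed from each other with TMP269. Myl12a was at 2707 ± 291 TPM in DsRed, 4163 ± 54 TPM in MGT and 3870.1 ± 49.4 TPM in MGT+TMP269 (SD, n = 3 each). Its log2 fold change with MGT was 0.63 ± 0.09 (SE), with a limma adjusted p of 0.00171, and its log2 difference with TMP269 was -0.11, with an adjusted p of 0.587. Myl12b was at 164.8 ± 12.3, 231.6 ± 7.4 and 442.6 ± 15.7 TPM. It rose 1.41-fold with MGT and a further 1.91-fold with TMP269, with limma adjusted p values of 0.00737 and 0.00036. Median-ratio scaling ended the MGT calls of Myl12a (adjusted p 0.163) and Myl12b (adjusted p 0.228), but not that of Myl12b with TMP269. The MGT call of Myl12b was also lost with only the 2 groups compared in the fit (adjusted p 0.0536). These paralogs are uncertain relative to each other, since 20.1% of the 31-base stretches of Myl12a occur in Myl12b. Myl10 was at 2.13, 1.90 and 0.724 TPM and was not called in any comparison.

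Light chain kinases phosphorylate the regulatory chains. Of 4 kinase genes 2 were tested, and 0 rose and 1 fell with MGT, while 1 rose and 0 fell with TMP269, where 8.14% and 4.18% of all genes rose and fell with MGT and 3.32% and 5.97% with TMP269. Mylk, the kinase of smooth and non-muscle cells, was at 19.1, 12.3 and 21.7 TPM in DsRed, 8.95, 7.59 and 8.87 TPM in MGT, and 24.5, 24.0 and 25.7 TPM in MGT+TMP269. The 3 groups did not overlap. Mylk was thus lowest in MGT, where Myl9 was highest. It fell 2.08-fold with MGT, with a limma adjusted p of 0.0133 (0.0623 without MGT replicate 2 and 0.0677 with only the 2 groups compared in the fit), and rose 2.92-fold with TMP269, with a limma adjusted p of 0.00206. Mylk3, the cardiac kinase, was at 0.884, 1.84 and 3.78 TPM, and was called for MGT+TMP269 against DsRed, at a log2 fold change of 1.35 and a limma adjusted p of 0.00285. Its mean was below 1 TPM in DsRed, so it passed the filter through the other groups. Its log2 difference between MGT+TMP269 and MGT was 0.79, with a limma adjusted p of 0.0702, and 0.0255 without DsRed replicate 2. In that last fit 2 kinases were higher, where 19.3% of all genes tested were higher. Mylk3 is 1 of these 2 and passed the filter through the groups in which it was high. The count can therefore not be read against that share.

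Myosin phosphatase removes that phosphate, and proteins of the Ppp1r14 family inhibit it. The 3 family members examined were Ppp1r14a, Ppp1r14b and Ppp1r14c. Ppp1r14c, an inhibitor of the phosphatase's catalytic subunit, went from 0.613 ± 0.14 TPM in DsRed to 25.1 ± 0.14 TPM in MGT and 67.9 ± 2.4 TPM in MGT+TMP269 (SD, n = 3 each). Its log2 fold changes were 4.02 ± 0.14 (SE) with MGT and 1.40 ± 0.14 (SE) with TMP269, with limma adjusted p values of 6.56e-08 and 0.000287. It was below 1 TPM in DsRed and passed the filter through the other groups. Ppp1r14a, a related inhibitor in smooth muscle, fell 2.01-fold with TMP269, from 41.9 to 20.9 TPM, with a limma adjusted p of 0.019. That call was lost in 5 of the 9 fits that left out 1 library, namely any MGT library and MGT+TMP269 replicates 2 and 3, with adjusted p values up to 0.0833, and under median-ratio scaling (adjusted p 0.0514).

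Ppp1r14b fell with MGT, with a log2 fold change of -0.46 and a limma adjusted p of 0.0351. That call was lost in 6 of the 9 fits that left out 1 library, namely any MGT or MGT+TMP269 library, with adjusted p values up to 0.151. It was also lost with only the 2 groups compared in the fit (adjusted p 0.127) and under median-ratio scaling (adjusted p 0.104). Its log2 difference with TMP269 was 0.21, with an adjusted p of 0.368, and 0.0273 without DsRed replicate 2.

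Sarcomeric heavy chains are the partners of the striated light chains. Of 10 such genes 5 reached the mean of 1 TPM. Myh2, Myh8 and Myh15 did so only through the groups in which they were high, so no count over the list is given. Myh6, the cardiac alpha heavy chain, was at 2.74 ± 0.18 TPM in DsRed, 71.3 ± 4.3 TPM in MGT and 326.3 ± 23.9 TPM in MGT+TMP269 (SD, n = 3 each), and rose 4.58-fold with TMP269 with a limma adjusted p of 1.97e-05. The fast skeletal chain Myh1 fell 3.84-fold with TMP269, from 147.2 to 38.4 TPM, with a limma adjusted p of 0.000191. Myh2, another fast skeletal chain, fell 14.6-fold, from 43.4 to 2.97 TPM, with a limma adjusted p of 1.16e-05. So the fast skeletal heavy chains Myh1 and Myh2 fell in the comparison in which the fast skeletal light chain Myl1 rose.

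Myh8 was at 0.136 TPM in DsRed, 4.94 TPM in MGT and 8.98 TPM in MGT+TMP269, and Myh15 at 0.111, 5.31 and 0.185 TPM. The call of Myh8 between MGT+TMP269 and MGT was lost in 6 of the 9 fits that left out 1 library, namely any MGT or MGT+TMP269 library, with adjusted p values up to 0.145, and with a pseudocount of 0.1 (adjusted p 0.136). Heavy chain paralogs share sequence, so their values are uncertain relative to each other. Sarcomeric heavy chains summed to 4.82 ± 0.38, 274.5 ± 7.5 and 378.3 ± 26.7 TPM, and striated light chain TPM exceeded them 18.8 ± 1.9-fold in DsRed, 24.5 ± 0.63-fold in MGT and 20.6 ± 0.73-fold in MGT+TMP269 (SD, n = 3 each).

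Among the non-muscle heavy chains, Myh9 was not called in any comparison. Myh14 was at 0.292 TPM in DsRed, 4.18 TPM in MGT and 4.30 TPM in MGT+TMP269, and passed the filter through the last groups. Myh10 fell 1.68-fold with MGT against DsRed, with a limma adjusted p of 0.0154. That call was lost without MGT replicate 3 (adjusted p 0.0755) and without DsRed replicate 1 (adjusted p 0.0509). With MGT+TMP269 against DsRed, Myh10 fell 1.93-fold, with a limma adjusted p of 0.00275. This second call held whichever library was left out. Between MGT+TMP269 and MGT, Myh10 was not called (limma adjusted p 0.517). Myh11, the smooth muscle heavy chain, was not among the gene symbols of the deposited table, so it could not be examined.

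Genes whose pattern lay closest to each tested light chain were taken by the Pearson correlation of log2(TPM + 1) over the 9 libraries. Of 8413 genes at a mean of at least 10 TPM, 8064 were considered, after leaving out the light chains themselves and predicted or clone-named genes. These values are descriptions, because the libraries are shared and the steps between groups dominate them. Closest to Myl4 were Actc1, cardiac alpha actin (r = 0.9993), Mustn1 (r = 0.9991) and Msln (r = 0.9991). Actc1 was at 5.25 ± 0.95 TPM in DsRed, 563 ± 31.8 TPM in MGT and 531 ± 54.2 TPM in MGT+TMP269 (SD, n = 3 each).

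Closest to Myl7 were Mlph (r = 0.9992), Atp6v0e2 (r = 0.9991) and Fam174b (r = 0.9987). Closest to Myl1 were Fabp3, the heart fatty acid binding protein (r = 0.9975), Myh6 (r = 0.9967) and Cpne2 (r = 0.996). At r over 0.95 there were 195 genes for Myl4, 199 for Myl7 and 148 for Myl1, against 7 for Myl6, 4 for Myl9 and 0 for Myl6b and Mylpf. For Myl9 the closest were Ssr2 (r = 0.9727), Sdf4 (r = 0.9711) and Sprr1a (r = 0.9678). For Myl6 they were led by Ndufa13 (r = 0.9801), for Myl6b by Cct7 (r = 0.9253) and for Mylpf by Gpaa1 (r = 0.9326).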

How the data were processed

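Total RNA of 9 libraries was sequenced after directional library preparation, per the labels' protocols. The values deposited by the authors are TPM, 1 for each gene symbol in each library. The submitters' processing notes name kallisto, DESeq2 and build mm9. What each was used for, its version, the annotation and the strand setting were not stated. Of 34804 lines, 25 were left out because they carried a date in place of a symbol, no symbol or a repeated one (0.123% to 0.176% of the TPM).

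Genes with a mean of at least 1 TPM over the 9 libraries were tested on log2(TPM + 1) with limma 3.58.1 in R 4.3.3: 1 fit of all 3 groups with a variance trend, 6 residual degrees of freedom, two-sided tests and Benjamini-Hochberg adjustment over 13228 genes. Log2 fold changes are on that scale, which understates low genes. Folds are ratios of mean TPM. Over all genes, 1630 were called for MGT against DsRed (1077 higher), 1229 for MGT+TMP269 against MGT (439 higher) and 3016 for MGT+TMP269 against DsRed (1950 higher). Within-library ratios were compared by exact permutation. The fit was tested on simulated data.

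Promoters came from RefSeq and shared 31-base stretches from GENCODE M21 transcripts. Members, lists and named genes were chosen with earlier results of these data known. Every member is named, as are the listed genes on which a statement rests, while some listed genes are not reported here, and the 3 genes closest in pattern to a member at a mean of at least 10 TPM. Endothelial markers summed to between 17.2 and 21.3 TPM in DsRed, 8.73 and 16.0 TPM in MGT and 6.63 and 6.95 TPM in MGT+TMP269. List counts without DsRed replicate 2 were added after seeing the data. Alternatives covered the scaling, the pseudocount, the filter, the groups in the fit, a replicate block, array weights and leaving out each library.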

Additional observations from a re-analysis of the deposited data

How the results depend on the processing

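Calls of Myl1, Myl4 and Myl7 against DsRed, and of Myl1, Myl7 and Myl9 for MGT+TMP269 against MGT, held under all 16 alternatives. Counts below are in the order MGT against DsRed, MGT+TMP269 against MGT, and MGT+TMP269 against DsRed. With only the 2 groups compared in the fit, 1066, 4476 and 1789 genes were called, and with array weights 2915, 4818 and 4377. With 1 library left out, the counts ranged from 1065 to 3468, from 626 to 4060 and from 1865 to 4851, each highest without DsRed replicate 2. The light chain genes called then numbered 4 to 6, 3 to 5 and 3 to 5. For MGT+TMP269 against MGT, Myl6 and Myl6b joined the calls, making 5, with array weights and without DsRed replicate 2. The share of higher calls moved from 66.1% to 56.1% with median-ratio scaling and 51.2% with quantile normalization in the first comparison, and from 64.7% to 47.1% and 50.7% in the third.

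Without Myl12a and Myl12b, the striated share differed by 60.5, 8.56 and 69.1 percentage points, and the log2 essential to regulatory ratio by 0.15, -0.35 and -0.20, the last with its sign turned. With 1 TPM added to both, the log2 Myl4 to Myl1 ratio differed by 1.96 for MGT against DsRed and by -0.38 for MGT+TMP269 against DsRed. Single genes that were not called also turned sign. For Myl6 in MGT against DsRed, median-ratio scaling gave -0.0448, and the fits without 1 library ran from -0.0723 (without DsRed replicate 1) to 0.391 (without DsRed replicate 2), with -0.04 without DsRed replicate 3. For Myl6 in MGT+TMP269 against MGT, quantile normalization gave 0.048. For Myl6 in MGT+TMP269 against DsRed, quantile normalization gave 0.0799, array weights 0.15, and the fits without 1 library ran from -0.295 to 0.168 (without DsRed replicate 2). For Myl4 in MGT+TMP269 against MGT, they ran from -0.0502 to 0.0105 (without MGT replicate 2). The cause of these changes was not tested.

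The labels give replicate numbers but not what they share. Deviations of same-numbered libraries correlated at -0.0698 to 0.132 over 9 pairs, 1 of them over 0.1, and 3 of 9 libraries correlated best with their own number. With a replicate block, 1418, 947 and 2679 genes and 5, 3 and 4 light chain genes were called. Among the other genes named with a call, Ppp1r14b in MGT (adjusted p 0.0562) and Myh8 with TMP269 (adjusted p 0.0721) lost it under the block. Depth is unknown in TPM, so no limit of detection can be set for Myl2 and Myl3.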
